A study of Caenorhabditis elegans with 3 samples.

Results

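The 48 genes described here encode J-domain proteins and heat shock proteins of the nematode Caenorhabditis elegans. They are all nuclear protein-coding genes whose symbol begins with dnj- or hsp-, with the exception of the 5 HSP70 genes hsp-1, hsp-3, hsp-4, hsp-6 and hsp-70. They make up 48 of 19973 nuclear protein-coding genes. Of these, 29 are J-domain genes and 15 are small heat shock protein genes, and the others are the chaperonin gene hsp-60, the HSP90 genes hsp-90 and hsp-75, and hsp-110. RefSeq gives a DnaJ or J-domain product for 28 of the 29 dnj- genes, the exception being dnj-21, which it names TIM14, a J-domain subunit of the mitochondrial import motor. All 19 hsp- genes carry a heat shock, chaperonin or HSP90-like product name.

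The promoters of these genes were examined for binding of Y5F2A.4, the zinc finger protein tagged in this chromatin immunoprecipitation experiment. All worms were of strain OP682, in which the unc-119(tm4063) mutation is carried together with wgIs682, an integrated transgene that holds Y5F2A.4 joined to TY1, EGFP and 3xFLAG tags and an unc-119(+) copy. Larvae of mixed sex were synchronised by bleaching and starvation at L1, grown for 48 h to the L4 stage and used whole, so the cells in which a site was occupied cannot be told apart. The tagged protein was recovered from sonicated chromatin of 200 to 800 bp with an antibody against GFP, giving 3 libraries in 1 group: 2 technical libraries of biological replicate 1, counted as 1 replicate, and 1 library of biological replicate 2. The design holds 1 strain, whose tagged copy is additional to any endogenous one, and no second condition, so no test between groups was possible. No read counts were in the lists used here, so the depth behind each region is not known.

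Molecular chaperones keep other proteins soluble and help them fold. J-domain proteins deliver substrates to HSP70 and stimulate its ATPase, HSP110 proteins act as nucleotide exchange factors for HSP70, and HSP90 acts on later folding steps of many regulatory proteins. Small heat shock proteins hold unfolded proteins, and the chaperonin HSP60 folds proteins inside mitochondria together with its HSP10 lid. Many of these genes are induced by heat through heat shock elements, repeats of the letters GAA and their complement TTC that are bound by the factor HSF-1.

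A promoter was the stretch that starts 1000 bp upstream and ends 200 bp downstream of a gene's annotated 5' end. It was called bound when it held a summit, the highest point of a region, from the authors' list of reproducible regions. It was called a candidate when it held a summit only from the longer list of candidate regions of both replicates together. The authors' signal value ranks regions within a list and has no stated unit. All 620 nuclear reproducible regions were the 620 strongest nuclear regions of the combined list of 28426, so bound here means a combined signal of at least 100.5.

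The sequences around the 3 bound summits are shown first, because they carry the sites on which the bound genes rest. Each is 121 bases of the RefSeq genome assembly WBcel235, which corresponds to ce11, centred on the summit and read on the strand of the dnj- or hsp- gene. The window of dnj-13 is chrII:11545396-11545516 on the + strand, that of hsp-60 is chrIII:1619069-1619189 on the + strand and that of dnj-19 is chrV:5505178-5505298 on the - strand. Capitals mark 3 words of 6 bases that all these windows hold on 1 strand or the other. The first of these words is CGCGAA. The second word, which stands apart from it in every window, is GAGCGC. The remaining word, whose letters can run on from the first in 1 stretch of 7 capitals, is GCGAAA.
dnj-13: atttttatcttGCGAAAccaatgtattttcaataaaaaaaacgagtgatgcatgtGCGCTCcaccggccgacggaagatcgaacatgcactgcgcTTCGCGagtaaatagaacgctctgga
hsp-60: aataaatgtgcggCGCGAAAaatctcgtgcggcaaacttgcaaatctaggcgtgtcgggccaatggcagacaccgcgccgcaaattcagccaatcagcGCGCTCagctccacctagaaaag
dnj-19: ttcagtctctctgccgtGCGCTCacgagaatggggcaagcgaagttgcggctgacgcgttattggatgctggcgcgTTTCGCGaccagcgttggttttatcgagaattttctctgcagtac

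These 3 words were picked after the 3 windows had been read, so their presence in the 3 windows is a description and no test. Over the 620 windows of reproducible summits, searched on both strands, CGCGAA was in 7.42%, GAGCGC in 11.3% and GCGAAA in 10.6%. Among windows of the same length centred 250 bp upstream of the 5' end of each of the 19973 genes, the shares were 2.7%, 2.19% and 7.49%. The reproducible windows as a whole were richer in G and C, with a median of 47.9% against 33.9% in the promoter windows, and the part of base composition in these shares was not tested. The hsp-60 and dnj-19 windows each had 54.5% G and C, and the dnj-13 window had 44.6%. The letters CCAAT were also in all 3 windows, but they were in 20.5% of reproducible windows and in 22.2% of promoter windows. The word CGAACC, in 18.4% of reproducible windows against 1.63% of promoter windows, and the word GAACCC, in 15.6% against 1.83%, were in none of the 3 bound windows.

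The next windows belong to the genes that stood next to the bound ones, the candidates dnj-9 and hsp-110 and the intronic site of hsp-90. They lie at chrII:4851751-4851871 on the + strand, chrIII:8447072-8447192 on the - strand and chrV:14685750-14685870 on the + strand. In the hsp-110 window capitals mark a heat shock element, and in the hsp-90 window they mark the word GCGAAA on the reverse strand. The dnj-9 window held none of the 3 words and no heat shock element, so it has no capitals.
dnj-9: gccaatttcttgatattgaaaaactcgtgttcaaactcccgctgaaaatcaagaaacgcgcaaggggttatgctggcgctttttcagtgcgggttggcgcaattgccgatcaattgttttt
hsp-110: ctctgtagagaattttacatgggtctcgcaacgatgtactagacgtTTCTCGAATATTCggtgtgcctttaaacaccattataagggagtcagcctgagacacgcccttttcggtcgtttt
hsp-90: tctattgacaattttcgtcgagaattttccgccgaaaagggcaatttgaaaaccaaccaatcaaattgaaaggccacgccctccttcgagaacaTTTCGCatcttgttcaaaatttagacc

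Bound promoters were those of hsp-60, dnj-13 and dnj-19, 3 of 48 genes or 6.25%, whereas 291 of 19973 protein-coding genes, 1.46%, had a bound promoter. Another 17 genes had a candidate and 28 had neither. Bound or candidate promoters together numbered 20 of 48, or 41.7%, against 30.4% of all protein-coding genes. A count of 3 is small and the members were chosen with earlier results known, and no test was made of either share.

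The families differed in how many members held a summit. Of the 29 J-domain genes 2 were bound, 13 were candidates only and 14 were neither, so 51.7% had a summit of some kind. Of the 15 small heat shock protein genes none was bound, 2 were candidates (hsp-16.2 and hsp-16.41) and 13 were neither, giving 13.3%. Of these 13, 4 are near-identical hsp-16 copies at which a missing summit is uncertain. The lone chaperonin gene was bound, hsp-90 and hsp-110 were candidates, and hsp-75, which encodes the mitochondrial HSP90 protein TRAP1, was neither. No summit in any list was found for 11 of the 29 J-domain genes. The same held for 11 of the 15 small heat shock protein genes, the 4 near-identical copies among them. These counts are small, and the difference between families was not tested.

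**Figure D1:**
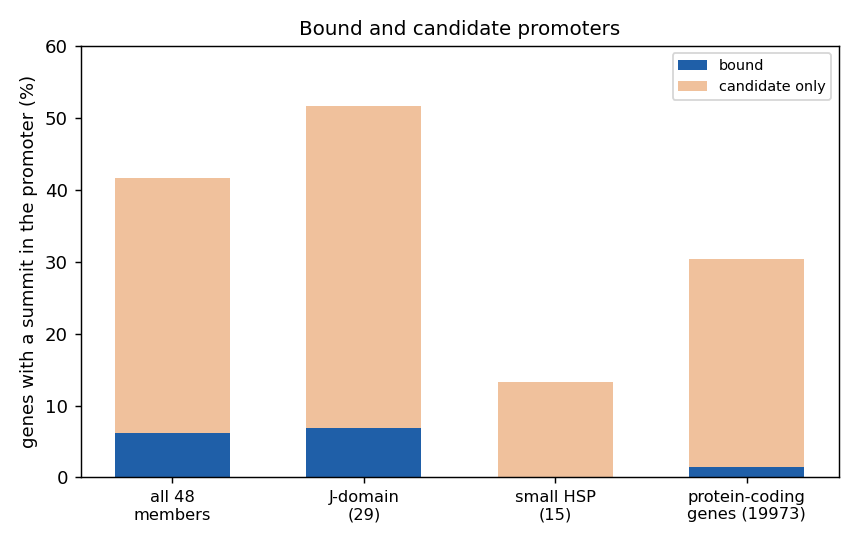
Share of promoters with a summit, in percent, for all 48 genes, the 29 J-domain genes, the 15 small heat shock protein genes and all 19973 nuclear protein-coding genes. Dark bars are bound promoters and light bars are candidates only. Bound promoters were 6.25% of the 48 genes and 1.46% of all genes, and 0 of 15 small heat shock protein genes. Of these 15, 4 are near-identical copies at which a missing summit is uncertain.

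The 3 bound genes were the only members whose promoter held one of the 620 strongest nuclear regions in both replicates. The hsp-60 summit had a signal of 108.2 in replicate 1 and 137.4 in replicate 2, at ranks 66 and 51. The dnj-13 summit had 112.4 in replicate 1 and 125.8 in replicate 2, at ranks 53 and 65. Both therefore stood near the top of either list. The dnj-19 summit had 54.2 in replicate 1 and 83.5 in replicate 2, at ranks 497 and 250, much closer in replicate 1 to the signal of 50.6 that the 620th nuclear region had. In replicate 2 the 620th region had a signal of 59.6.

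**Figure D2:**
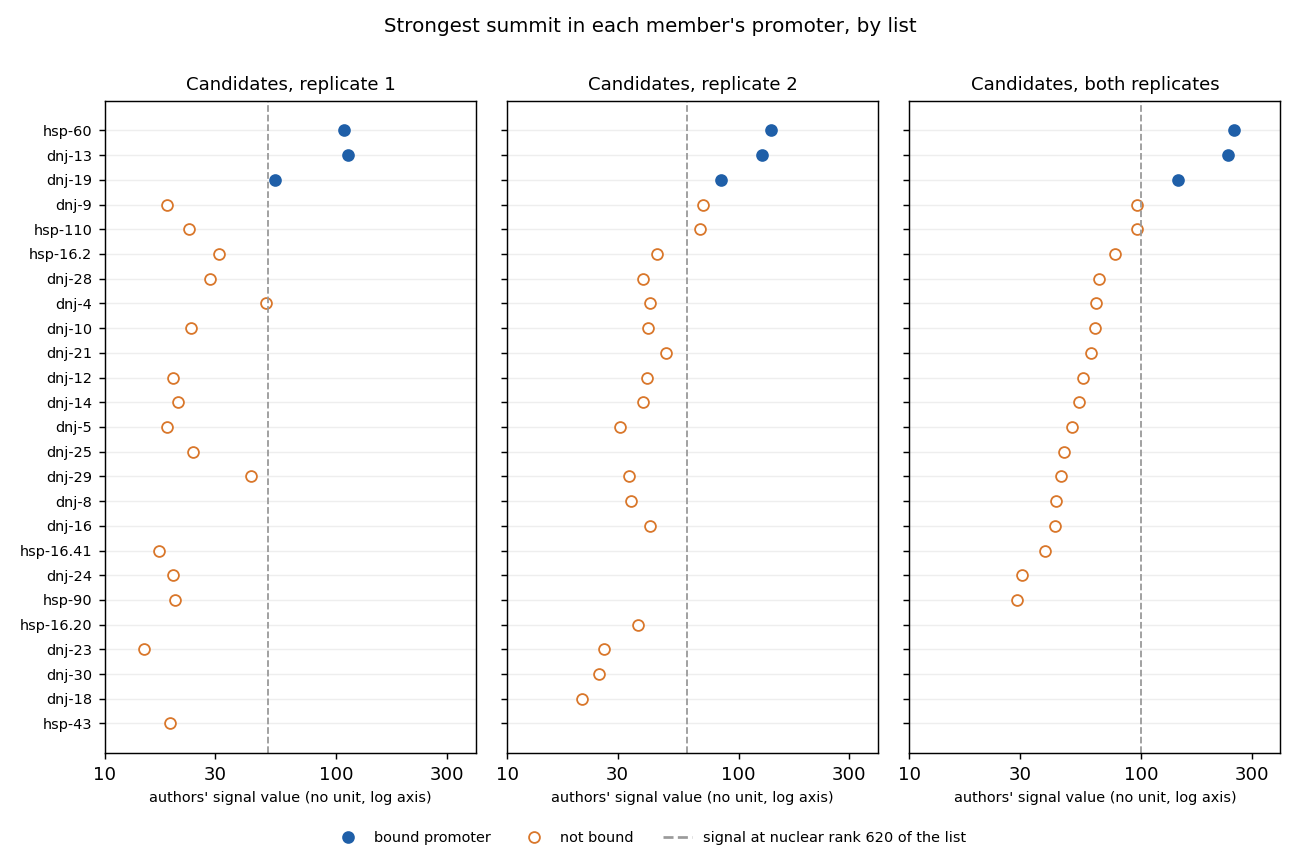
Authors' signal value (log axis, no unit) of the strongest summit in each promoter, for the 25 genes with a summit in any of the 3 candidate lists. Filled points are bound genes and open points are not; the dashed line is the signal at nuclear rank 620, and only hsp-60, dnj-13 and dnj-19 lie to the right of it in all 3 panels.

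hsp-60 encodes the mitochondrial chaperonin and had the strongest summit of the 48 genes. Its region, chrIII:1619079-1619201, was 123 bp wide and had a signal of 251.0 in the combined list, rank 48. The summit lay 613 bp upstream of hsp-60 and outside any gene body. It was nearer to another gene, Y22D7AL.10, whose 5' end was 200 bp away on the other side and which is transcribed in the opposite direction. RefSeq names the product of Y22D7AL.10 as the mitochondrial 10 kDa heat shock protein, the co-chaperonin that closes the HSP60 barrel. The summit thus lay between the divergent genes of a chaperonin and its partner, and which of them it belongs to cannot be told apart. No non-coding gene lay within 200 bp.

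dnj-13 encodes a J-domain protein of class B, the DNAJB type that works with cytosolic HSP70. Its region, chrII:11545268-11545643, was 376 bp wide and had a signal of 237.5 in the combined list, rank 55. The replicate summits lay 8 bp to either side of the combined one. The summit was 245 bp upstream of dnj-13, in an intron of dhgd-1, which encodes a mitochondrial D-2-hydroxyglutarate dehydrogenase and runs on the opposite strand. On the other side of the summit, 628 bp away, was the 5' end of F54D5.9, a divergent gene for an F-box protein. The summit lay in the F54D5.9 promoter as well, so that promoter was also bound. Among protein-coding genes dnj-13 had the nearest 5' end. Nearer still, at 8 bp, was the 5' end of the unclassified non-coding RNA gene F54D5.22. F54D5.18, another such gene, covers the same 150 bp on the opposite strand, and its 5' end was 157 bp from the summit.

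dnj-19 encodes a J-domain protein of class A, the DNAJA type. Its region, chrV:5505050-5505425, was 376 bp wide and had a signal of 143.9 in the combined list, rank 242. The summit lay 381 bp upstream of dnj-19 and 15 bp upstream of nhr-47, a divergent gene for a nuclear hormone receptor. It also fell in the exon of the non-coding RNA gene C24G6.10, and C24G6.12, another one, was 191 bp away. As at dnj-13, 2 non-coding genes lay within 200 bp of the summit.

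None of the 3 bound genes had the 5' end nearest to its summit when non-coding genes were counted. Over all protein-coding genes, 140 of the 291 with a bound promoter were also nearest. Those 140 were 0.701% of 19973. Of the 3 summits, 2 had a non-coding gene within 200 bp, those of dnj-13 and dnj-19, and none of these non-coding genes was annotated as a tRNA, snoRNA or snRNA. Reads over such a gene and over a promoter beside it cannot be told apart in the region lists. The share of all 291 bound promoters with a non-coding gene by the summit was not worked out.

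**Figure D3:**
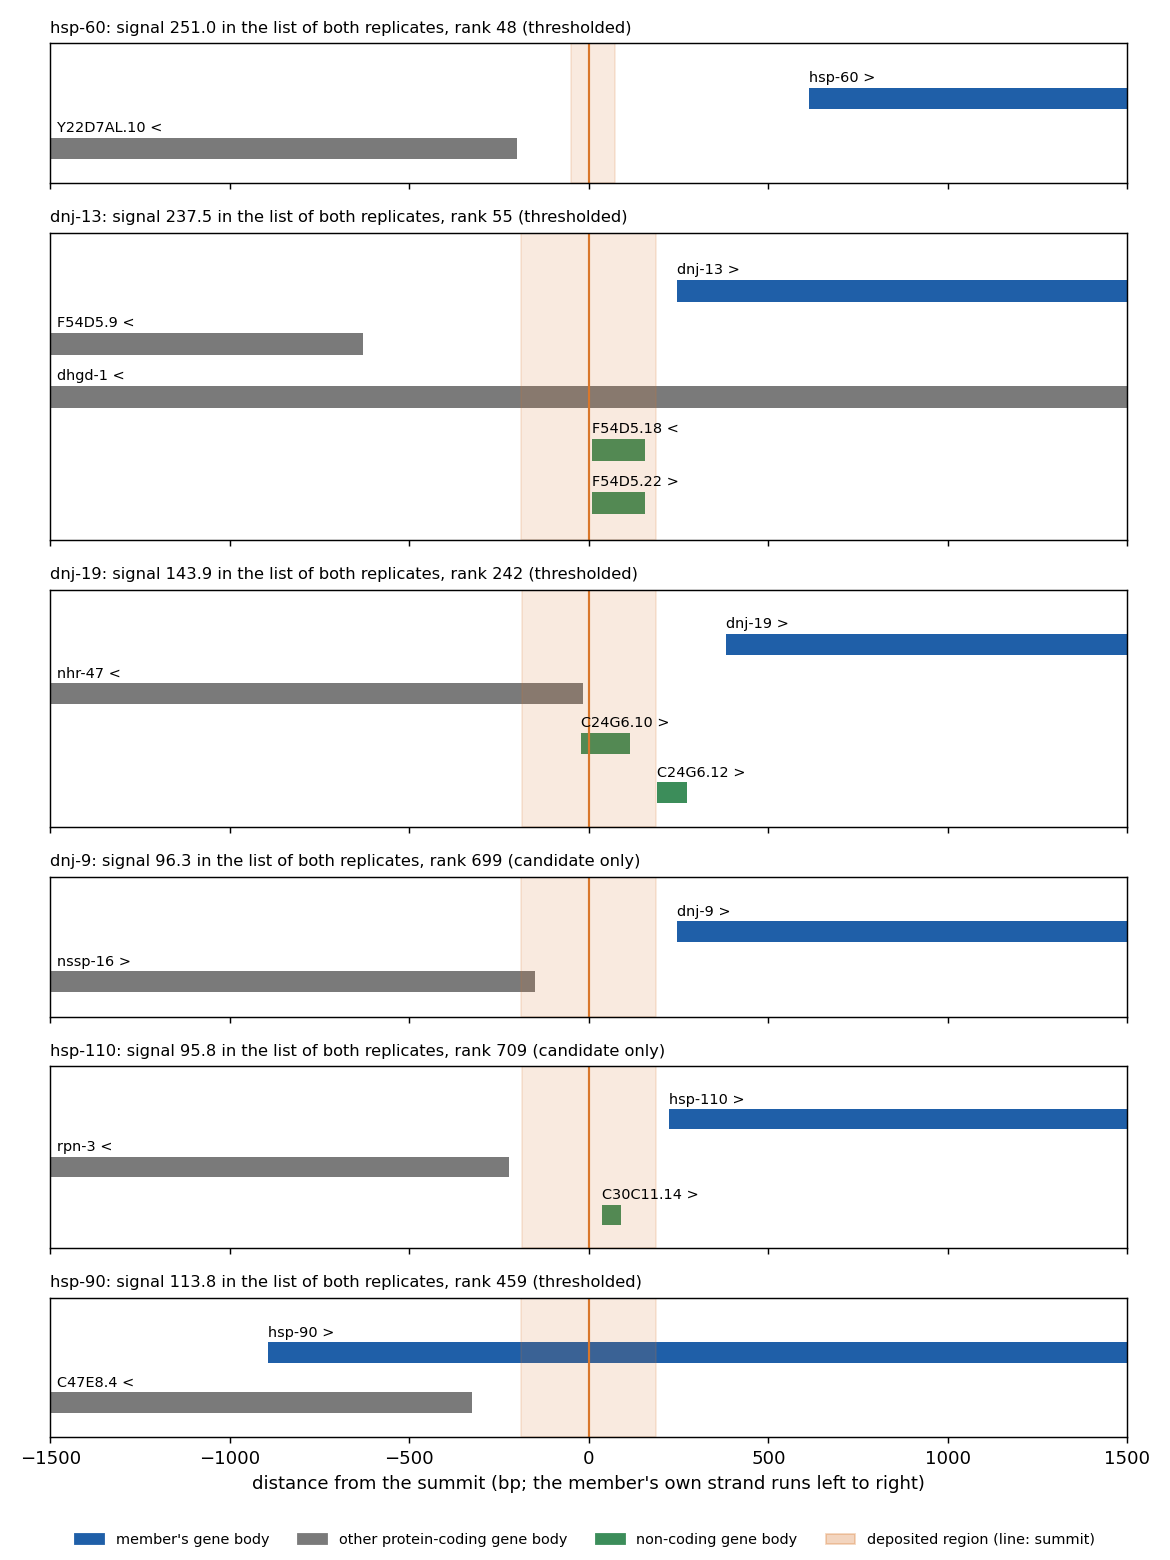
Gene bodies around the summits of hsp-60, dnj-13, dnj-19, dnj-9, hsp-110 and the intronic site of hsp-90, by distance from the summit in bp (negative is upstream on the strand of the dnj- or hsp- gene). The summits of hsp-60, dnj-13, dnj-19 and hsp-110 lie between divergent genes. Green non-coding genes lie within 200 bp of the summits of dnj-13, dnj-19 and hsp-110.

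The candidates dnj-9 and hsp-110 lay just under the signal that defines reproducible regions, and both stood unlike the bound genes in replicate 1. The dnj-9 region, chrII:4851623-4851998, had a signal of 96.3 in the combined list, rank 699. In replicate 1 its signal was 18.6, rank 18393, and in replicate 2 it was 70.2, rank 392. The summit was 245 bp upstream of dnj-9, which had the nearest 5' end of any gene, and 150 bp past the 3' end of nssp-16, a gene for a neuropeptide-like protein. dnj-9 was thus the strongest member whose own 5' end was the nearest one, and it was among the 620 strongest regions in replicate 2 only.

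hsp-110 encodes the nucleotide exchange factor of the HSP110 family. Its promoter region, chrIII:8446944-8447319, had a signal of 95.8 in the combined list, rank 709, with 23.2 in replicate 1 (rank 10362) and 67.8 in replicate 2 (rank 434). The summit sat between hsp-110, 223 bp away, and the divergent gene rpn-3, 221 bp away, which encodes a regulatory subunit of the 26S proteasome. The non-coding RNA gene C30C11.14 was 37 bp away. A heat shock element was centred 8 bp from the summit, the closest of any member, and is the stretch in capitals in the hsp-110 sequence above. Both dnj-9 and hsp-110 had the highest −log10 q of the combined list, 1.97, a value shared by 781 nuclear regions, so q did not separate them from the bound genes.

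The other candidates were weaker, and are given by their role. Of the J-domain genes with a known mitochondrial product, dnj-10 (the mitochondrial DNAJA3 relative) had a summit at -200 bp with a combined signal of 63.6, rank 2743. dnj-21, for the import motor subunit TIM14, had one at -155 bp with 61.0, rank 3186. For both genes the own 5' end was nearest. dnj-21 had no summit in the replicate 1 list and one of 48.3, rank 1251, in replicate 2, whereas dnj-10 had 23.6 in replicate 1 and 40.5 in replicate 2.

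Among J-domain genes of the cytosol and secretory pathway, dnj-12, a class A gene like dnj-19, had a summit at -277 bp with a combined signal of 56.4, rank 4283, and the divergent mitochondrial gene mtx-1 was nearer, its 5' end being 215 bp away. dnj-14, which encodes the cysteine string protein of synaptic vesicles, had a summit at -321 bp with 54.2, rank 5003, inside the non-coding RNA genes DL2.2 and DL2.1. dnj-25, for auxilin, which uncoats clathrin vesicles, had one at -871 bp with 46.5, rank 8647. dnj-29, for the SEC63 component of the endoplasmic reticulum translocon, had one at -153 bp with 45.3, rank 9449. These sites differed between replicates: dnj-25 and dnj-29 had a replicate 1 summit near the combined one, of 24.1 and 42.7, and no replicate 2 summit within 200 bp of it. In replicate 1 the dnj-29 site ranked 1120.

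The J-domain genes dnj-28, dnj-4 and dnj-5 completed the stronger candidates. dnj-28 had a summit at -108 bp with a combined signal of 66.1, rank 2371, and signals of 28.4 in replicate 1 and 38.6 in replicate 2. dnj-4 had a summit at -6 bp with 63.8, rank 2695, the one closest to its own 5' end among all members. Its replicate 1 signal of 49.4, rank 670, was just below the signal of rank 620, but the replicate 2 summit lay 180 bp away and had 41.5. dnj-5 had a summit at -877 bp with 50.6, rank 6438. The remaining candidates dnj-8, dnj-16, hsp-16.41, dnj-24 and hsp-90 had combined signals of 43.0, 42.4, 38.4, 30.8 and 29.2, where the median of all nuclear regions in that list was 39.5 and the lowest value 29.2. The hsp-90 promoter summit, at rank 28391 of 28426, was thus at the bottom of the list.

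The small heat shock protein genes of the hsp-16 class are the classical heat-inducible genes of the worm, and several lie in divergent pairs. The strongest summit in the hsp-16.2 promoter, with a combined signal of 77.0 at rank 1346, was 930 bp upstream of hsp-16.2 and 12 bp past the 3' end of its divergent partner hsp-16.41. It had 31.0 in replicate 1 and 44.6 in replicate 2. This summit was thus at the far end of hsp-16.41 and not in the stretch between the genes. That stretch held a weaker combined summit 81 bp upstream of hsp-16.41, with a signal of 38.4 at rank 15313. It is shown together with the first bases of hsp-16.41, as chrV:1804958-1805185 on the + strand, because it is a widely used heat shock promoter. Capitals mark 2 identical heat shock elements. The second of them, centred at -3 bp from hsp-16.41, runs across the 5' end of that gene.
hsp-16.2 to hsp-16.41: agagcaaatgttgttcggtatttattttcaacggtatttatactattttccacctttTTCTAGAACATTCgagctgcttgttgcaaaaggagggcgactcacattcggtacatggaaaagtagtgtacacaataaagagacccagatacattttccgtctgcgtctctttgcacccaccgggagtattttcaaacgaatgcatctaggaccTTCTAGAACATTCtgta

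The hsp-16.1, hsp-16.48, hsp-16.49 and hsp-16.11 promoters had no summit in any list, but these genes are near-identical copies. Of the 36-base words in their promoters, 96.5%, 100%, 100% and 93.2% occurred elsewhere in the genome, against at most 18.9% for each of the other 44 genes. The authors' treatment of reads that map to several places was not stated, so the lack of a summit at these 4 genes is uncertain. For the other members without a summit, a site was not detectable at an unknown depth.

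Positions of the combined summits within the promoter were on the upstream side, which makes up most of the window (1000 bp upstream, 200 bp downstream). An upstream position is thus largely set by the window. The strongest combined summit lay upstream of the 5' end in 20 of 20 members with one, against 80.5% of the 6067 protein-coding genes with a summit. In the replicate lists the strongest summit of these members was downstream at dnj-4 in replicate 2 (174 bp) and at hsp-90 in replicate 1 (188 bp). The median offset was -299 bp among the 20 members and -316 bp among all genes. Within 400 bp upstream were 13 of 20 members, or 65%, against 37.7% of all genes. The median signal of the strongest summit was 58.7 among the 20 members and 41.6 among the 6067 genes. These medians are over genes with a summit only, and they are descriptions.

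**Figure D4:**
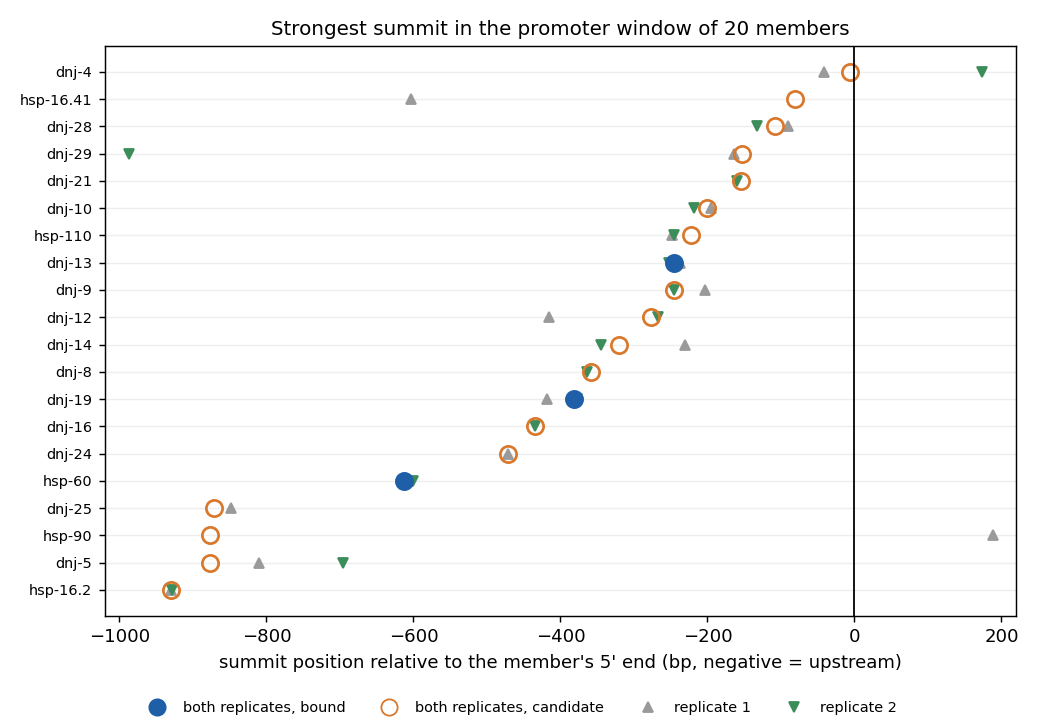
Position of the strongest summit relative to the 5' end in bp (negative is upstream) for the 20 genes with a summit in the combined list. Circles are the combined list (filled for bound) and triangles the replicates; all 20 circles lie upstream, from -930 bp for hsp-16.2 to -6 bp for dnj-4.

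The own 5' end was the nearest of all genes for 12 of 20 members, 60%, against 73.9% of the 6067 protein-coding genes. A non-coding gene lay within 200 bp of the strongest summit in 5 of 20 members, 25%, against 10.1%. By chromosome, bound or candidate promoters were found in 5 of 8 members on I, 4 of 6 on II, 5 of 9 on III, 0 of 7 on IV, 5 of 14 on V and 1 of 4 on X. Over all protein-coding genes the shares were 39.9%, 30.5%, 37.3%, 28%, 24.1% and 27.8% in the same order.

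Each replicate's own list gave a similar number of promoters with a summit. The replicate 1 list, with 29984 nuclear regions, held a summit in 19 of 48 promoters, 39.6%, against 30.7% of all protein-coding genes. The replicate 2 list, with 23398 nuclear regions, held one in 20 of 48, 41.7%, against 26.9%. Both lists held one in 14 promoters, and 23 of the 48 genes had no summit in any of the 3 candidate lists. The promoters of dnj-30, dnj-18, hsp-16.20 and hsp-43 had a summit in 1 replicate list and not in the combined one. That of dnj-23 had one in both replicate lists, at -764 bp in replicate 1 and -995 bp in replicate 2, and none in the combined list.

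Where both replicates had a summit within 200 bp of the combined one, the order of ranks was uneven. This was so for 12 members, of which 10 ranked higher in replicate 2, the exceptions being dnj-13 and dnj-4. Among all protein-coding genes 1309 of 2233 ranked higher in replicate 2. The lists differ in length, so a rank in one is not the same depth in the other. Among members that were not bound, dnj-28 ranked 5246 in replicate 1 and 3128 in replicate 2, and dnj-9 ranked 18393 and 392.

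**Figure D5:**
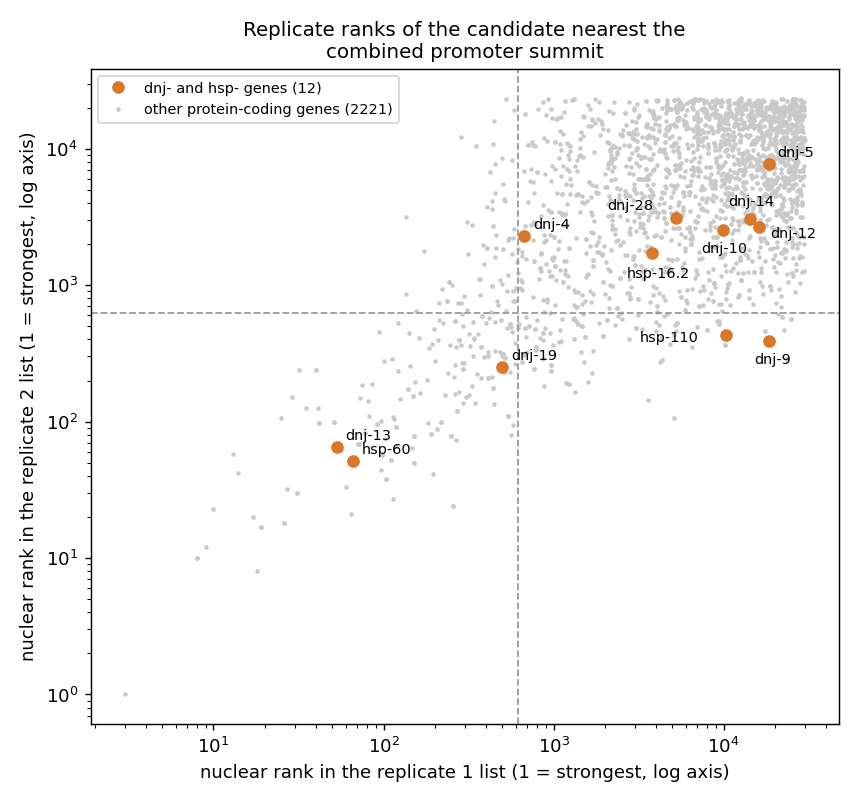
Nuclear rank in the replicate 1 list (x) and the replicate 2 list (y) of the candidate nearest the combined promoter summit, both log axes with 1 the strongest. Orange points are the 12 dnj- and hsp- genes and grey points the other protein-coding genes with such a pair of summits; hsp-60, dnj-13 and dnj-19 are the only orange points below rank 620 (dashed lines) in both lists.

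Some reproducible summits lay near members but outside the promoter window. The one in hsp-90, which encodes cytosolic HSP90, was at chrV:14685622-14685997 with a combined signal of 113.8, rank 459, in an intron of the gene. It was 892 bp downstream of the Ensembl gene 5' end of hsp-90 but at -350 bp from the 5' end that RefSeq gives. By the Ensembl gene 5' end, used here, hsp-90 is thus a weak candidate. It is bound by the RefSeq 5' end, and also when the 5' end of any annotated Ensembl transcript counts. Its signal was 84.3 in replicate 1, rank 135, and 38.5 in replicate 2, rank 3144, the reverse of the pattern at dnj-9 and hsp-110. The nearest Ensembl 5' end was that of C47E8.4, at 325 bp, a gene RefSeq names as a FAM50 homolog.

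A reproducible summit of hsp-110, besides the candidate in its promoter, lay 1715 bp downstream of its 5' end in a coding exon, at chrIII:8445006-8445381. It had a combined signal of 132.1, rank 305, with 85.3 in replicate 1 (rank 130) and 51.5 in replicate 2 (rank 991). Like the hsp-90 site it ranked higher in replicate 1. The third such summit was by hsp-12.3, a small heat shock protein gene, at chrIV:9444435-9444810 with a combined signal of 105.0, rank 561, and signals of 53.1 in replicate 1 and 58.6 in replicate 2. It lay 168 bp past the 3' end of hsp-12.3 and 19 bp from the snRNA gene F38E11.10.

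Within the promoter window the bound summits stood well inside its limits, with hsp-60 387 bp, dnj-13 445 bp and dnj-19 581 bp from the nearest edge. The nearest summits outside stood 684 bp (hsp-12.3), 692 bp (hsp-90) and 1515 bp (hsp-110) beyond it.

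Heat shock elements were searched for because the genes are known for them, as the letters TTCNNGAA followed directly by NNTTC, on either strand, with overlapping matches allowed. Of the 48 promoters 12, or 25%, held one, against 7.68% of all protein-coding promoters of the same length. They were those of the 6 hsp-16 genes hsp-16.1, hsp-16.11, hsp-16.2, hsp-16.41, hsp-16.48 and hsp-16.49, of hsp-60, hsp-90 and hsp-110, and of the J-domain genes dnj-12, dnj-13 and dnj-24. The divergent pairs share their elements, so these are not 12 independent promoters.

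Of the 12 promoters with an element, 8 also held a summit, though not always close to it. Of the 20 bound or candidate members 8 held an element, and of the 28 others 4 did, all of them near-identical hsp-16 copies. A missing summit at those 4 copies is uncertain, and hsp-16.2 and hsp-16.41 count the same elements. The element share among all 6067 genes with a summit was not worked out, so no link between element and summit is read from these counts. Of the bound genes, hsp-60 had an element centred 78 bp from the summit and dnj-13 one centred 158 bp from it, and dnj-19 had none. Among candidates the nearest element was 8 bp from the strongest summit at hsp-110, 76 bp at hsp-16.41 and 80 bp at dnj-24. At dnj-12, hsp-16.2 and hsp-90 it was farther away, at 238, 712 and 798 bp. The RefSeq 5' end of dnj-24 lies 4518 bp from the Ensembl one, so its promoter window rests on the Ensembl annotation. That of hsp-90 lies 1242 bp downstream of the Ensembl one. The hsp-90 elements, at -79 and -9 bp from the Ensembl 5' end, would fall outside a promoter set from the RefSeq 5' end. They also lie within the body of the opposite-strand gene C47E8.4. In the hsp-16.41 promoter the strongest replicate 1 summit was at -603 bp, and replicate 2 had none. A match is a description of letters, not a site, and says nothing of which protein was there.

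Other chaperone genes were read in the same way, from lists that are no more independent of earlier results. Of the 5 HSP70 genes left out by the naming rule, hsp-1 and hsp-3 were bound, with combined signals of 138.6 and 127.9. Of 8 subunits of the cytosolic chaperonin CCT, cct-8 and cct-1 were bound, with 223.2 and 125.4. Of 11 co-chaperones of HSP70 and HSP90, bag-1, a nucleotide exchange factor, was bound with 152.9. None of 6 prefoldin subunits and none of 12 regulators of stress responses was bound. Bound or candidate were 3 of 5 HSP70 genes, 3 of 8 CCT genes, 4 of 11 co-chaperones, 2 of 6 prefoldin genes and 4 of 12 regulators. Over all protein-coding genes 1.46% were bound and 30.4% bound or candidate, and with lists this short nothing is read from the counts. Of these 5 bound genes, hsp-3 and bag-1 had the 5' end nearest to the summit, at 43 and 167 bp. For hsp-1, cct-1 and cct-8 another gene was nearer, as for the bound J-domain genes and hsp-60.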

How the data were processed

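Binding of tagged Y5F2A.4 was measured in 2 biological replicates. The authors deposited 4 region lists in assembly ce11, per the labels: 3 of candidate regions, for either replicate and for the pooled reads, and a list thresholded with the irreproducible discovery rate. Each deposited region has a signal value (a peak caller's score of no stated unit, compared here only within a list) and a −log10 q value given by the authors. Which peak caller, aligner and rate limit were used is not given in the sources used here. Control reads were not used here. Signal can depend on read depth, mappability and the control.

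Summits were set against Ensembl release 115 genes of WBcel235, with all 4 lists inside its chromosome ends (0 regions past one), using Python 3.11.15. RefSeq gave symbols for 4 members. Coordinates are counted from 1. Nearest 5' ends were taken over all genes except pseudogenes and piRNA genes, and replicate summits within 200 bp of a combined summit were matched to it. In a check of the code, summits were simulated at genes drawn from the 19973. Of those planted in promoters 200 of 200 were recovered, and 0 of 200 planted 1 bp outside were called. The window's definition sets that outcome, so the check bears on the code only. With 1 group no test was run.

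The members, lists and words were chosen with earlier results of these data known. Named by rule were the bound members, the 12 strongest candidates and up to 3 members with a summit closest to either side of the window edge. The rule also took in genes nearest to those summits and bound genes of the other chaperone lists. Some other members were named outside the rule, mainly to say which genes a count held. Alternatives varied the window, 5' end, assignment, list threshold, replicates, non-coding neighbours and motif.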

Additional observations from a re-analysis of the deposited data

How the results depend on the processing

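The count of bound members depended on how summits were assigned and on the replicates. It ranged from 3 to 5 when a replicate was left out and the 620 strongest nuclear candidates of the other were used. The 5 were reached without replicate 1, and added dnj-9 and hsp-110. Counting every combined region at the highest −log10 q as bound, an alternative added after seeing the data, also gave 5. Leaving out summits within 200 bp of a non-coding gene left 1, hsp-60, and giving each summit only to its nearest 5' end left 0. With a promoter of 500 bp upstream to 100 bp downstream the count was 2, without hsp-60. With the 5' ends of any annotated Ensembl transcript, or with RefSeq 5' ends (added after seeing the data), it was 4, with hsp-90. Bound members with the nearest 5' end numbered 0, and 0 to 1 when a replicate was left out, the 1 being dnj-9 without replicate 1. Counting only protein-coding 5' ends gave 1, dnj-13. Bound members with a non-coding gene by the summit numbered 2, and 0 when only tRNA, snoRNA and snRNA genes counted. The shorter motif TTCNNGAA was in 34 members, 70.8% against 57.9% of all genes, and the full motif within 250 bp upstream and 50 bp downstream in 9, 18.8% against 1.98%. Of 187 values for single named genes 175 kept their call and 12 moved. All the moves were at the bound genes and at dnj-9, hsp-110 and hsp-90. The other named genes were bound under no setting, and settings that only remove summits could not change them. The 175 therefore say little of how stable a bound call is. Read depth is unknown and there are 2 replicates, so neither a missing summit nor an uneven signal can be weighed against counting error. No paired analysis was possible because the design holds 1 group and no comparison between groups.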
